A study of Mus musculus with 6 samples.

Results

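The circular RNA array used in this study also carried probes for 50 linear mRNA targets, and their signal was measured in hippocampal RNA after digestion with RNase R. The targets were found by the name of their probes, without use of any measured value, and each was printed on 10 spots per array, which made 500 of the 15712 spots. Hippocampi came from male C57BL/6J mice aged 12 months, 3 in the surgery group and 3 in the control group, with 1 mouse per array. The surgery group had a tibial fracture of the left hind leg fixed with an intramedullary nail under isoflurane anesthesia with analgesia, while the control group received the same anesthesia and analgesia without surgery. Tissue was taken 72 h later. All mice had also been through a fear conditioning test with foot shocks and an open field test, so both groups share that experience, and the mice for the arrays were drawn at random from those that met the study's criterion for the model. The tibial fracture stands here as a model of postoperative delirium. Undigested RNA and mice without anesthesia were not analysed here.

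RNase R is an exonuclease that degrades linear RNA from its 3′ end, whereas circular RNA has no free end and is largely spared. The digestion is meant to remove mRNA before labeling. The probes for mRNA report what is left of it, together with any other RNA that binds them. That can include circular RNA that holds the probed sequence. The targets are a mixed set. Some genes are abundant in brain, such as Apoe, Actb and Mbp, while others, such as the olfactory receptor genes Olfr166 and Olfr1307 or the tyrosinase gene Tyr, are known for other tissues.

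Of the 50 transcripts, 44 were matched to a gene symbol of RefSeq (GRCm38.p6) and 6 kept their transcript identifier. The sequences of the mRNA probes were not used here, and since the array design is based on another genome build than the gene table, no coordinates are given. Of the marker lists used to check the tissue, 1 of 5 oligodendrocyte genes (Mbp) and 0 of 13 neuronal, 0 of 6 astrocyte, 0 of 6 microglial, 0 of 3 endothelial and 0 of 8 inflammation genes were among the targets. Mbp was above the brightest negative control probe on 1 of 6 arrays, so these targets gave no check of the tissue label.

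The spot intensities were quantile normalized over all spots and log2 transformed, and the 10 spots of a target were averaged. A spot was taken as detected when it carried both marks of the scanner software, well above background and positive with a significant signal, and a target when more than 5 of its 10 spots were. No spot was saturated and no spot of a target was marked as not uniform. The raw median intensity of the target spots lay between 34.0 and 51.2 over the 6 arrays, against a local background of 12.5 to 13.0. That of the negative control spots, described below, was nearly the same, between 32 and 50. The arrays held no sequencing depth, and their number limits the precision.

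Detection of the linear targets was partial and varied between arrays. On surgery replicates 1, 2 and 3, 27, 36 and 34 of the 50 targets were detected. On control replicates 1, 2 and 3 the numbers were 19, 33 and 30. The ranges of the groups overlapped, and control replicate 1 held the fewest. That array was also the lowest for circular RNA (circRNA) probes, with 65.0% detected against 83.8% to 91.4% on the other 5 arrays. The lowest normalized signal that the software called well above background was 5.32 on control replicate 1 and 4.78 to 5.08 on the others. Over the 6 arrays, 19 targets (38.0%) were detected on every array, where 64.7% of the circRNA probes were. Another 7 were detected on 5 arrays, and in all 7 the missing array was control replicate 1. On 3 or 4 arrays 6 targets were detected, on 1 or 2 arrays 6 targets, and 12 were detected on none.

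The array carries 15 negative control probes, also with 10 spots each, and they were not dark. Between 37.3% and 64.0% of their 150 spots were well above background, and 6 of the 15 probes (40.0%) were detected on all 6 arrays by the rule used for the targets. On each array, 6 to 9 of the 15 were detected, with 6 on control replicate 1. Their mean levels over the arrays ran from 4.21 to 6.29 on the log2 scale. A mark of detection therefore did not separate a linear target from a negative control probe on these arrays. As a second measure, a target was compared with the brightest negative control probe of the same array, which lay between 6.09 and 6.62. On surgery replicates 1, 2 and 3, 9, 8 and 7 targets exceeded it. On control replicates 1, 2 and 3, 7, 7 and 4 did. These are 8% to 18% of the targets, against 23.2% to 40.8% of the circRNA probes. Only 4 of the targets, among them Apoe, Pex11a and Actb, were above the brightest negative control probe on all 6 arrays, 7 were on some, and 39 were on none.

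**Figure D1:**
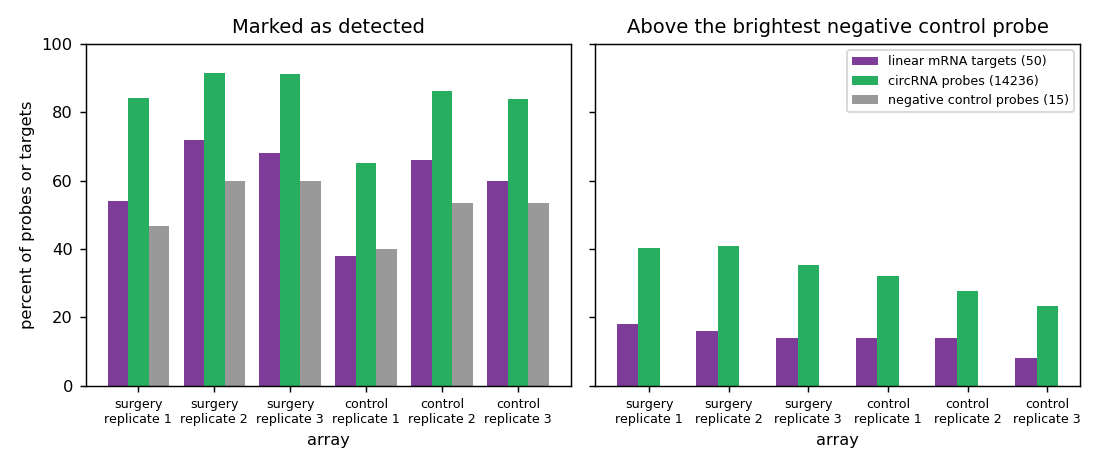
Percent of linear mRNA targets, circRNA probes and negative control probes marked as detected (left) and above the brightest negative control probe of the same array (right), for each of the 6 arrays. Targets are detected less often than circRNA probes on every array, and 4 to 9 of the 50 lie above the brightest negative control probe.

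Apoe, which encodes a lipid carrier secreted by astrocytes and microglia, had the brightest probe of the 50. Its log2 levels were 8.02, 7.70 and 8.03 after surgery and 8.29, 8.0 and 8.14 in controls. The control range reached higher but the groups overlapped. Actb, which encodes β-actin, read 7.54, 7.35 and 7.22 after surgery and 7.70, 7.53 and 7.67 in controls. Its groups overlapped by surgery replicate 1 and control replicate 2, which were almost level. These are intensities of different probes, which bind with their own strength, so the order of targets by level is not an order of abundance.

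The probe of Pex11a was as bright as those of these abundant mRNAs. Pex11a encodes a membrane protein of peroxisome division, and its levels were 7.40, 7.85 and 8.18 after surgery and 7.78, 7.93 and 7.77 in controls. Surgery replicate 1 was the lowest of the 6 and surgery replicate 3 the highest, so the controls lay inside the range of the surgery arrays. Surgery minus control was −0.02 for Pex11a (standard error 0.17, limma, adjusted p = 0.970). With surgery replicate 1 alone, which shared a slide row with all control arrays, the difference was −0.43. Olfr166 read 6.44, 6.57 and 6.84 after surgery and 6.34, 6.56 and 6.22 in controls, and was above the brightest negative control probe on 5 of 6 arrays. The transcript XM_006525458, which has no symbol in the table used, read 6.09, 6.39 and 6.59 after surgery and 6.12, 6.21 and 5.79 in controls.

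Several targets followed Pex11a from array to array. Over the 6 arrays, Pearson's r with Pex11a was highest for the annexin gene Anxa8 at 0.84, followed by the creatine synthesis gene Gamt at 0.81 and the interleukin-2 gene Il2 at 0.77, among the targets named here. The lowest was that of Taf1a, a gene of the RNA polymerase I machinery, at −0.76. These are descriptions over 6 points that share 1 slide and 1 normalization, and these targets were picked by their values. Anxa8, Gamt and Pex11a all had their lowest surgery level on surgery replicate 1, while Il2 read 5.23 on both surgery replicates 1 and 2. Anxa8, Gamt and Il2 exceeded the brightest negative control probe on no array, and Anxa8 was detected on 3 arrays and Il2 on 4.

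**Figure D2:**
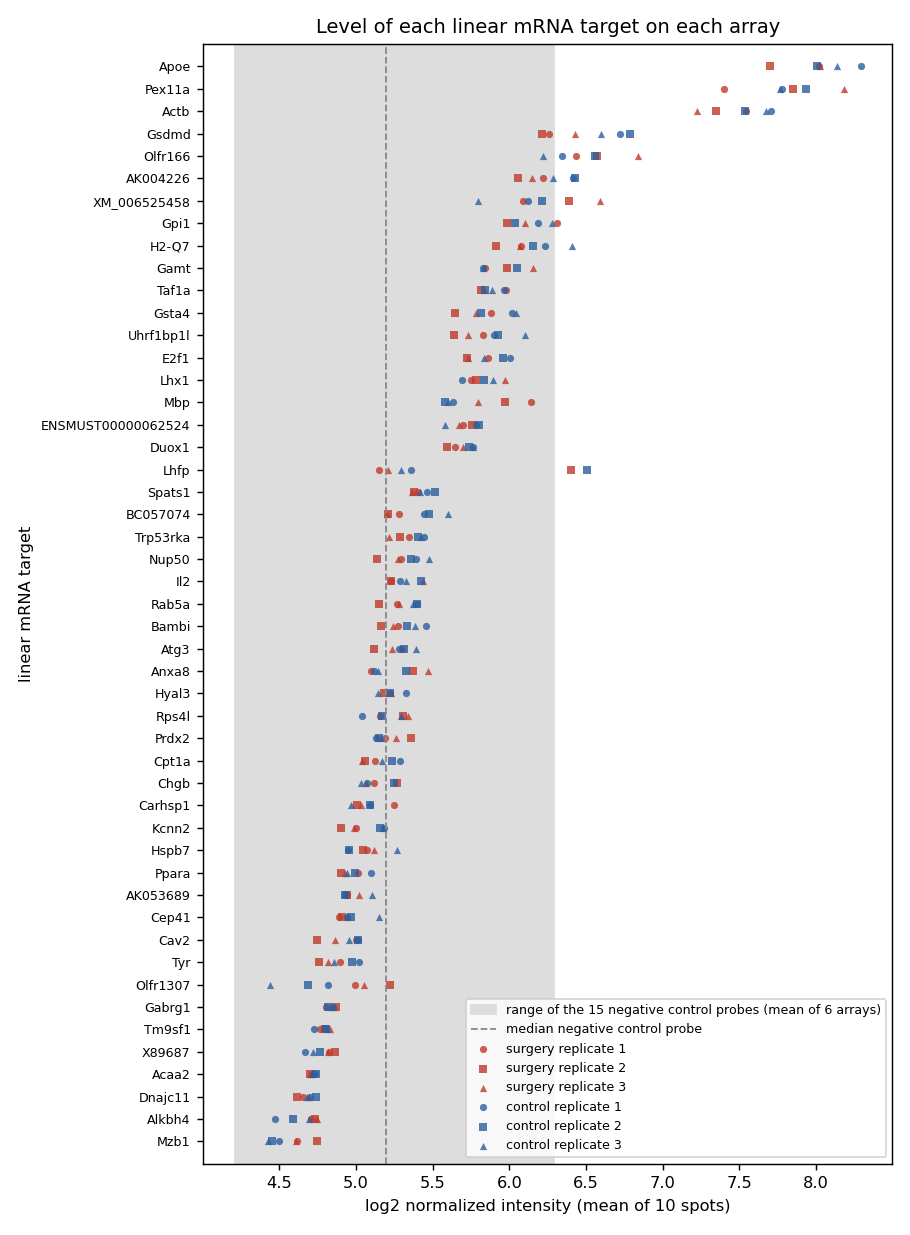
Log2 normalized intensity of 49 of the 50 linear mRNA targets on each array (mean of 10 spots; red, surgery; blue, control; marker shape, replicate), ordered by mean level. The gray band spans the mean levels of the 15 negative control probes, 4.21 to 6.29, and most targets lie inside it, with Apoe, Pex11a and Actb beyond it on every array.

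At the other end, 13 targets lay below the median negative control spot on all 6 arrays. Mzb1, a gene of antibody-producing B cells, had the lowest mean, with 4.62, 4.74 and 4.61 after surgery and 4.50, 4.46 and 4.42 in controls. Alkbh4, a demethylase gene, read 4.70, 4.73 and 4.75 after surgery and 4.47, 4.59 and 4.69 in controls. Dnajc11, a mitochondrial chaperone gene, read 4.65, 4.61 and 4.69 after surgery and 4.70, 4.74 and 4.68 in controls. The groups stood apart by 1 narrow gap for Alkbh4 and overlapped for Dnajc11. Neither was detected on any array. Tyr, the pigment gene of melanocytes, ran from 4.76 to 5.02 and was detected on none as well. Among the targets grouped as neural, Lhx1, a homeobox gene, ran from 5.69 to 5.97 and was detected on all 6 arrays. Gabrg1, a GABA-A receptor subunit gene, ran from 4.81 to 4.87 and Kcnn2, a calcium-activated potassium channel gene, from 4.90 to 5.18. Chgb, which encodes chromogranin B of secretory granules, ran from 5.03 to 5.27 and was detected on 2 arrays. Ppara, Cpt1a and Acaa2, the fatty acid oxidation genes among the targets, were likewise dim. Ppara and Acaa2 lay below the median negative control spot on all 6 arrays and were detected on none, and Cpt1a lay below it on 5 arrays and was detected on 2.

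The precision of a target on an array can be read from its 10 spots. The SD of log2 intensity between the spots of a target on an array had a median of 0.10 and a range of 0.04 to 0.42. The SD between the arrays of a group had a median of 0.08 over the targets and a range of 0.01 to 0.70. The first is a spread of single spots and the second a spread of means of 10 spots, so their sizes are not compared.

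Lhfp, a gene of the tetraspan family named for its fusion in a lipoma, had the widest spread between arrays, and is described because of the values it showed. Its levels were 5.15, 6.40 and 5.21 after surgery and 5.36, 6.51 and 5.29 in controls. The second replicate of each group was high and the other 4 arrays were low, so the spread lay within both groups. The 10 spots of each array lay close together. On surgery replicate 2 they ran from 6.30 to 6.47 and on control replicate 2 from 6.43 to 6.56, while the highest spot on the other 4 arrays was 5.55. The raw spot intensities were 82.5 to 95 and 76 to 83 on these 2 arrays and 28.5 to 53 on the others. Its SD between the arrays of a group, 0.70, was above that of the next target, Pex11a, at 0.29. Surgery minus control was −0.13 (standard error 0.37, adjusted p = 0.865 by limma). The sources used here do not state whether the replicate numbers mark a shared litter or batch. The cause of the high level in both mice was not tested.

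**Figure D3:**
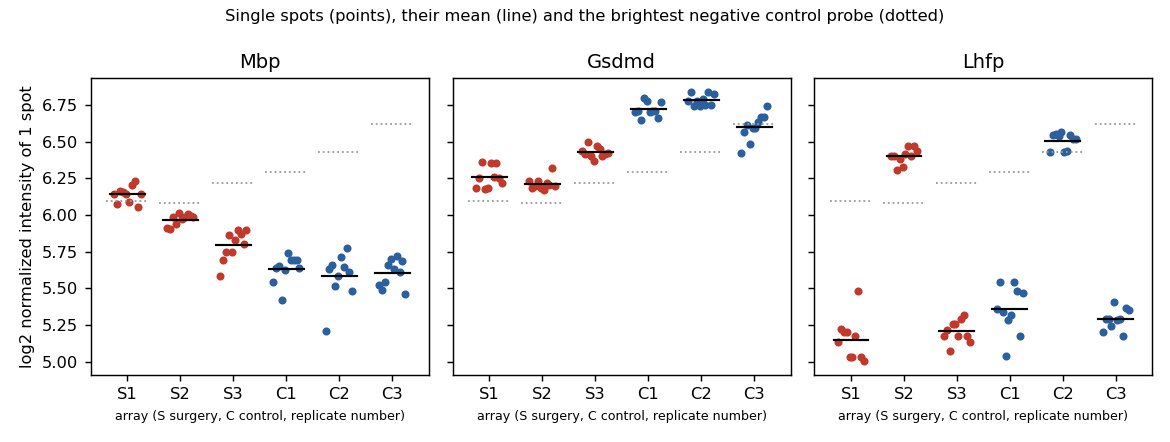
Single spots of Mbp, Gsdmd and Lhfp on each array (log2 normalized intensity; S, surgery; C, control; black line, mean of 10 spots; dotted line, brightest negative control probe of that array). Mbp is higher on the 3 surgery arrays, Gsdmd is lower on them, and Lhfp is high on the second array of each group.

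Surgery was then compared with control over 12531 features, made of the 12499 circRNA probes and the 32 linear targets detected on at least 3 arrays. The other 18 targets were not tested. This filter let through 64% of the targets and 87.8% of the circRNA probes. By the same rule, 9 of the 15 negative control probes (60%) would have passed. A target could pass this filter through the group in which it was higher, so counts over the 32 do not stand for all 50. Each array stands for 1 mouse, so the spread behind the p-values mixes differences between mice with those between arrays. Slide row was tied to group in part. Row 2 held surgery replicates 2 and 3 and no control array, so an effect of row on these 2 arrays cannot be told apart from surgery. With limma's moderated test, adjusted over all features by Benjamini-Hochberg, 0 of 32 targets had an adjusted p under 0.05, where 0.0479% of all features did. By the methods' t-test, run on the same values, 0 targets and 0 of all features passed after adjustment, and 1 target and 534 of all features passed the methods' own thresholds. The smallest adjusted p of a target was 0.0872. At an unadjusted p under 0.05 there were 7 targets (21.9%), close to the 20.7% of all features, and 6 of them were lower after surgery, where 9.15% of all features were. The methods' thresholds were a 1.3-fold difference and an unadjusted p no higher than 0.05. They were met by 1 target (3.12%), which was lower after surgery, against 6.12% of all features, of which 4.18% were higher and 1.94% lower.

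That target was Gsdmd, which encodes gasdermin D, the pore-forming protein of pyroptotic cell death. Its log2 levels were 6.26, 6.21 and 6.43 after surgery and 6.72, 6.78 and 6.60 in controls. Every surgery array was below every control array. The means were 6.30 ± 0.11 (SD, n = 3) and 6.70 ± 0.09 (SD, n = 3). Surgery minus control was −0.40 on the log2 scale (standard error 0.10, adjusted p = 0.0872 by limma), a 1.32-fold lower level after surgery. It was detected on all 6 arrays, with 10 of 10 spots on each, and was above the brightest negative control probe on 5 of them, the exception being control replicate 3. When the arrays were centered on their negative controls instead, the log2 fold change was −0.23 (adjusted p = 0.184 by limma). It was also short of 1.3-fold without surgery replicate 2, at −0.36, without control replicate 2, at −0.36, without normalization between arrays, at −0.38, and with normexp background correction at an offset of 50, at −0.30. The difference was larger with the processed signal, at −0.59 quantile normalized and −0.62 scaled to its 75th percentile, and without surgery replicate 3, at −0.46. In the first row of the slide, which held surgery replicate 1 and all 3 control arrays, the difference was −0.44. The raw intensities did not overlap either, at 68, 75.8 and 89.8 after surgery and 98, 96 and 109.5 in controls.

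Mbp, which encodes myelin basic protein of oligodendrocytes, was the only tested target whose surgery arrays all lay above the control arrays. It read 6.14, 5.97 and 5.79 after surgery and 5.63, 5.58 and 5.60 in controls, or 5.97 ± 0.17 (SD, n = 3) and 5.61 ± 0.03 (SD, n = 3). The lowest surgery array, replicate 3, was the nearest to the control arrays. The difference of 0.36 on the log2 scale (standard error 0.11, adjusted p = 0.114 by limma) was the largest above 0 among the 32 targets. This is a 1.28-fold higher level after surgery. When the arrays were centered on their negative controls, the difference was 0.54 and its adjusted p 0.0172 by limma, and without normalization between arrays it was 0.26 with an adjusted p of 0.592. In the raw intensities the groups overlapped, since Mbp read 63.0, 63.5 and 57.5 after surgery and 50.2, 44.2 and 61.0 in controls. In the first row of the slide, where surgery replicate 1 was the only surgery array, the difference was 0.54. Without surgery replicate 1 it was 0.27, and with the processed signal quantile normalized it was 0.69. Mbp was above the brightest negative control probe on surgery replicate 1 only. The probe reads what is left of Mbp mRNA after digestion, together with any other RNA that binds it, linear or circular. The extent of digestion was not analysed here. In bulk tissue, more oligodendrocytes in a sample and more Mbp mRNA per cell cannot be told apart. Whether the difference reflects either of these, the extent of digestion or other RNA bound by the probe was not tested. The difference itself is not settled, since its adjusted p was 0.114 by limma, it varied with the normalization and the raw intensities overlapped.

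Most other tested targets were slightly lower after surgery, and so were the negative controls. Of the 32 targets, 24 (75%) had a log2 fold change below 0, against 51.3% of all features. The median was −0.11 over these targets and −0.01 over all features. Over all 50 targets the median was −0.050, and the 18 targets not tested split into 9 lower and 9 higher. Among the 15 negative control probes, 14 were lower after surgery, with a median difference of −0.14 and a range of −0.31 to 0.04. The median negative control spot of an array read 5.18, 5.04 and 5.20 after surgery and 5.35, 5.28 and 5.32 in controls. The groups did not overlap, with a difference of −0.17 (p = 0.1 in a two-sided exact permutation test, which is the lowest that 3 arrays against 3 can reach). Centering the arrays on their negative controls adds the same amount to every feature, and puts the median of the targets at 0.07 and that of all features at 0.17. Whether the lower targets and the lower negative controls share a cause was not tested.

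Among the tested targets, 11 (34.4%) lay below the control arrays on every surgery array, where 12.0% of all features did, and 1 (3.12%), Mbp, lay above, where 13.5% of all features did. Of the negative control probes, 8 of 15 (53.3%) lay below and 0 above. Among the tested targets that lay below, the largest difference after Gsdmd was that of the transcript BC057074. It read 5.28, 5.21 and 5.20 after surgery and 5.44, 5.48 and 5.60 in controls. The difference was −0.27 on the log2 scale (standard error 0.09, limma, adjusted p = 0.144). It was −0.10 centered on the negative controls and −0.71 with the processed signal quantile normalized. H2-Q7, a gene of a nonclassical MHC class I molecule, read 6.08, 5.91 and 6.07 against 6.23, 6.15 and 6.41. Uhrf1bp1l read 5.83, 5.64 and 5.73 against 5.90, 5.92 and 6.10, and the transcript AK004226 read 6.22, 6.05 and 6.15 against 6.41, 6.43 and 6.28. The differences of these 3 lay between −0.24 and −0.23, and between −0.07 and −0.06 when centered on the negative controls. The adjusted p of these 3 lay between 0.198 and 0.214 by limma. In each of them the gap between the groups was smaller than the range of the control arrays. BC057074, H2-Q7 and Uhrf1bp1l exceeded the brightest negative control probe on no array, and AK004226 did on 2.

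The remaining separated targets had smaller differences, and none of them exceeded the brightest negative control probe on any array. Nup50, a nuclear pore gene, read 5.29, 5.13 and 5.27 after surgery and 5.39, 5.36 and 5.48 in controls. Rab5a, a GTPase gene of early endosomes, read 5.27, 5.15 and 5.28 against 5.40, 5.40 and 5.37. Bambi, which encodes a pseudoreceptor that dampens TGF-β signaling, read 5.28, 5.16 and 5.24 against 5.45, 5.33 and 5.39. Trp53rka, a kinase gene, read 5.35, 5.29 and 5.21 against 5.44, 5.40 and 5.42. All 4 had log2 fold changes between −0.18 and −0.14 and adjusted p between 0.297 and 0.378 by limma. Centered on the negative controls, Bambi turned to 0.012, Rab5a to 0.018 and Trp53rka to 0.034, and Nup50 was at −0.004. With the processed signal quantile normalized, the 4 lay between −0.49 and −0.39. Duox1 and Spats1 completed the 11, at −0.11 and −0.08.

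**Figure D4:**
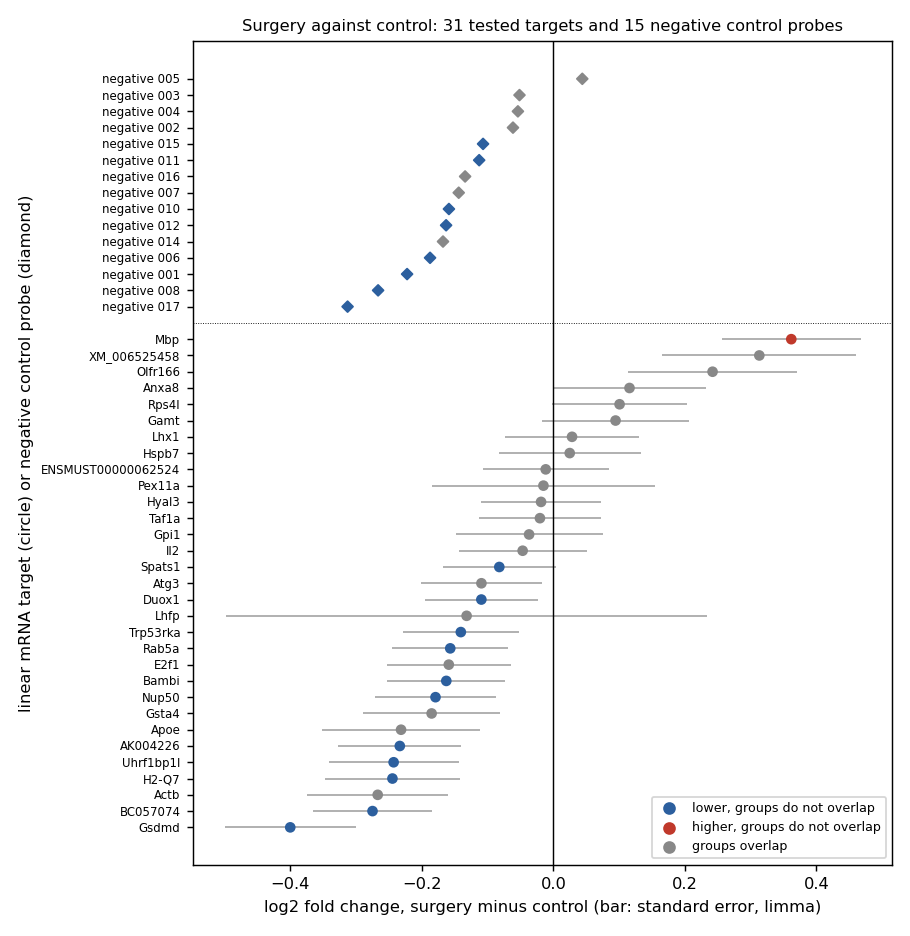
Log2 fold change, surgery minus control, of 31 of the 32 tested linear mRNA targets (circles; bar, standard error from limma) and difference of the means of the 15 negative control probes (diamonds). Blue and red mark groups that do not overlap: 11 targets and 8 negative control probes are lower after surgery, and Mbp is higher.

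Actb, the gene by which PCR results are often scaled, differed by −0.27 on the log2 scale (standard error 0.11, limma, adjusted p = 0.198). In the first row of the slide the difference was −0.10, without normalization between arrays it was −0.07, and centered on the negative controls it was −0.09. Apoe differed by −0.23 (standard error 0.12, limma, adjusted p = 0.300). It was at 0.02 without normalization between arrays and at −0.12 without surgery replicate 2. XM_006525458 and Olfr166 followed Mbp at the top, with 0.31 (standard error 0.15, adjusted p = 0.262 by limma) and 0.24 (standard error 0.13, adjusted p = 0.309 by limma). Without surgery replicate 3 they were 0.20 and 0.13, and without control replicate 3 XM_006525458 was at 0.19. In the first row of the slide, the differences were 0.04 for XM_006525458 and 0.06 for Olfr166. Centered on the negative controls, XM_006525458 was at 0.49 (adjusted p = 0.0490 by limma) and Olfr166 at 0.42 (adjusted p = 0.0569 by limma). Of the 18 targets that were not tested, 5 lay above the control arrays on every surgery array and 3 below, beside 13.5% and 12.0% of the tested features. The widest of these gaps was that of Olfr1307, whose control arrays read at most 4.82. It was detected on surgery replicate 2 only, so no fold is given. Kcnn2 was detected on 1 control array and on no surgery array, and its control arrays lay between 5.16 and 5.18.

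Circular RNAs of the target genes could be looked up for part of the array, since the circRNA names of 1257 probes were read from the study's list, whose readable section lists circRNAs that were higher in the surgery group, so a difference above 0 is fixed by how they were listed. Among these were 1 exonic circRNA of the linear target Spats1, a gene of sperm development, and 1 circRNA antisense to Kcnn2. The probe of the Spats1 circRNA, of 60 bases, is shown. Among the probes whose names were read, it is the only probe for the circular form of a gene whose linear form was also read.
mmu_circRNA_30516: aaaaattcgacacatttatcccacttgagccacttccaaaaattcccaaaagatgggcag
This probe read 5.78, 5.47 and 5.57 after surgery and 5.48, 5.71 and 5.49 in controls, and was detected on 5 arrays. The linear Spats1 target read 5.41, 5.38 and 5.36 after surgery and 5.46, 5.51 and 5.42 in controls, and was detected on 5 arrays too. The groups overlapped for the circular form (difference 0.05 on the log2 scale, standard error 0.11, limma, adjusted p = 0.833) and stood apart by a narrow gap for the linear form (−0.08, standard error 0.09, limma, adjusted p = 0.605). The circRNA antisense to Kcnn2 differed by 0.30 (standard error 0.17, limma, adjusted p = 0.343). It comes from the strand opposite to Kcnn2, so the Kcnn2 mRNA is not its linear form. How the difference between the circular and linear forms of Spats1 varied with surgery was not tested.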

How the data were processed

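Total RNA of 6 hippocampi was digested with RNase R, labeled with Cy3 by random priming and hybridized to the Arraystar mouse circular RNA array. All arrays lay on 1 slide. The values the authors deposited come from Agilent Feature Extraction 11.0.1.1. They are a median intensity per spot and one of its surroundings, not yet normalized, a further intensity from which background was subtracted and trends removed, and other marks of 0 or 1. The methods name quantile normalization in limma. Here, median signals were quantile normalized over all spots, and surgery was compared with control using limma 3.58.1 (lmFit, eBayes) under R 4.3.3. Spots that were not uniform were left out, which touched circRNA probes only. Repeated spots were averaged. The steps were tested on simulated data. Members, lists and tests were chosen with earlier results of these data known. Among the tested targets, values on every array are given for those that passed a threshold, for the 10 largest differences without overlap and for the 3 largest in each direction. Among all targets they are given for the 5 brightest, less the target not reported, for the 3 dimmest, and for listed markers. Of the marker lists, choroid plexus and blood cells had no target and housekeeping had Actb. Others are marked as singled out or given in ranges. Among the targets 1 is counted but not reported here. Role groups were formed after the values were seen. Alternatives covered the test, the normalization, the background, the signal, the filter, the averaging of spots, the replicate number, the slide row, and each array left out. Plots were made by Python 3.11.15 with matplotlib 3.10.9, and jsonlite 2.0.0 was used for input.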

Additional observations from a re-analysis of the deposited data

How the results depend on the processing

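The number of targets with an adjusted p under 0.05 stayed at 0 in 22 of 23 alternatives and was 2 (Mbp and XM_006525458, adjusted p = 0.0490 by limma) with arrays centered on their negative controls. The methods' thresholds, met by 1 target and 767 of all features, were met by 2 (799) with cyclic loess, 2 (1018) with normexp at an offset of 16, 0 (274) at an offset of 50, 3 (2040) centered on the negative controls, 9 (2407) with the processed signal quantile normalized, 12 (2868) with it scaled to its 75th percentile, 2 (789) with no detection filter and 4 (1223) with slide row as a block, with all features in parentheses. With each array left out there were 0 to 2 (656 to 1149), with 0 without surgery replicate 2 and 2 without surgery replicate 1 or 3. The median log2 fold change of the targets was −0.16 without normalization, −0.064 with normexp at an offset of 50, −0.20 and −0.23 with the processed signal quantile normalized and scaled, −0.050 over all 50 targets and 0.065 centered on the negative controls. The mean number of targets detected per array, 29.8, was 42.8 by the positive and significant mark alone and 7.33 by a level above the 95th percentile of negative control spots. Of the 16 targets for which alternatives were run, 10 kept their direction in every alternative. Without normalization, Apoe turned to 0.019 and Pex11a to 0.21. Centering on the negative controls raises every feature alike, so small differences below 0 turn by construction, and Bambi turned to 0.012, Rab5a to 0.018, Trp53rka to 0.034, Lhfp to 0.043 and Pex11a to 0.16. With array weights Lhfp turned to 0.035 and Pex11a to 0.026, and Pex11a was 0.11 with the scaled processed signal and 0.011 with the median of its spots. With an array left out, Lhfp lay between −0.54 and 0.26 and Pex11a between −0.20 and 0.19. With the replicate number as a block, 0 targets (199 of all features) passed the adjusted and 1 (798) the methods' thresholds. The methods speak of 3 pairs of samples without saying what paired them. Deviations of same-numbered arrays correlated at 0.29, 0.26 and −0.02, which does not settle whether the numbers mark pairs. The reported comparison was unpaired. The adjusted p of Mbp lay between 0.0172 and 0.592 and that of Gsdmd between 0.0543 and 0.445 over the alternatives. The cause of these differences was not tested. Over all features, those with an adjusted p under 0.05 numbered 6 in the reported setting, 1657 centered on the negative controls, and 0 to 289 in the other alternatives. Signal over background is low for most targets, which limits every comparison of them.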
